A study of Mus musculus with 4 samples.

Results

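The replication-dependent histone genes encode the linker histone H1 and the core histones H2A, H2B, H3 and H4 that package newly made DNA. In mouse they lie in a large cluster on chromosome 13, a smaller one on chromosome 3, a pair of genes on chromosome 11 and a single gene on chromosome 6. They are transcribed mainly in S phase, from a nuclear domain called the histone locus body, where NPAT gathers the transcription machinery. Their mRNAs carry no poly(A) tail and instead end in a short stem-loop that is bound by SLBP. Chromatin accessibility at these genes was measured by ATAC-seq, in which a transposase cuts and tags open DNA, in bone mesenchymal stem cells (MSCs) of old and young mice.

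The old group held 2 samples from mice of 18 to 22 months and the young group held 2 samples from mice of 3 to 5 months. All 4 samples shared the same culture, at 2% O2 in αMEM with 10% FBS and penicillin/streptomycin, and the labels name neither a transgene nor a treatment. For the cells it describes, the study isolated MSCs from hind limb bones and sorted them as CD45-/Ter-119-/Sca-1+/CD140a+ cells. The labels do not say how many mice made up a sample or whether replicates came from separate animals, so p-values measure the spread between these samples, which may be technical.

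Histone peaks were those peaks of the common list that lay within 1 kb of a protein-coding gene whose symbol starts with Hist1h, Hist2h, Hist3h or Hist4h in GENCODE vM21 (GRCm38, the assembly that mm10 names). This gave 35 of 117282 peaks, or 0.0298%, each counted once. The annotation held 67 such genes, of which 6 encode H1, 18 H2A, 18 H2B, 12 H3 and 13 H4. On chromosome 13 there were 54 genes and 26 peaks, on chromosome 3 there were 10 genes and 6 peaks, on chromosome 11 there were 2 genes and 2 peaks, and on chromosome 6 there was 1 gene with 1 peak. All 35 peaks overlapped a histone gene itself. The nearest peak outside the limit lay 1588 bp from Hist1h2bp and the next, 1947 bp from Hist1h4c, had a mean deposited value of 48.6.

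The deposited values were whole multiples of 1 step per sample, scaled to 10000000 per library and not divided by peak width, so levels are compared between peaks only per kb of peak. The library totals behind them lay between 28259470 and 32559794 counts, and a value of about 1 corresponded to 3 counts. Comparisons between samples used values divided by RLE factors (median ratios to the geometric mean of the samples, between 0.817 and 1.15). Of the MSC markers, 8 of 8 had a peak within 1 kb of a start site, against 2 of 3 endothelial markers (Pecam1 and Tek). The blood cell genes Ptprc, Itgam and Adgre1 had none. The summed deposited values of the endothelial markers were 37.1 and 49.8 in the old and 68.3 and 69.4 in the young samples, and those of the MSC markers ranged from 1566 to 2145. On this deposited scale the median log2 fold change of old against young was -0.27 over all peaks. After RLE scaling the log2 fold change was -0.73 at the Tek peak, but 0.65 and -0.050 at the Pecam1 peaks. The part of other cells in the results was not tested. In a bulk sample, fewer cells with an open site and a less open site in each cell cannot be told apart.

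The stem-loop is shown first because it defines this gene family. A stem-loop was searched within 100 bases after each stop codon as arms of 6 bases that pair perfectly around a loop of 4 bases, with a first arm that opens with any base and then GC, and TT at the start of the loop. It was found after 61 of the 67 histone genes and after 4 of 21676 other protein-coding genes, which were Bicra, C1ql3, H2afx and H2bfm. It began between 21 and 58 bases after the stop codon, with a median of 30. Only 5 forms occurred, given here as DNA from GRCm38 with the paired arms in capitals.
Most common form, 41 genes of H1, H2A, H2B and H3: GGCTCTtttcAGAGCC
Second form, 9 genes including Hist1h1t and Hist1h2ba: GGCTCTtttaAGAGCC
Hist2h2ac alone: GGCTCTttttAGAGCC
H4 form, 8 genes including Hist1h4c and Hist4h4: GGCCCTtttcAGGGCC
H4 form of Hist1h4i and Hist2h4: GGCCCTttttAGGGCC
The arm told the classes apart. All 10 H4 genes with a stem-loop had GGCCCT as the first arm, and all 51 other genes had GGCTCT. The letters were not found by this rule after Hist1h4a, Hist1h4b, Hist1h4j, Hist1h2an, Hist1h3g and Hist2h2be.

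Promoter sequences are shown next because the accessible peaks lay over them. RefSeq windows on GRCm38, from 250 bases before to 50 bases after the start, could be matched to 62 of the 67 genes, and 6 motifs were searched in them on both strands. The CCAAT box (CCAAT), bound by NF-Y, was present in 6 of 6 H1, 18 of 18 H2A, 16 of 16 H2B and 10 of 10 H3 windows but in 3 of 12 H4 windows, against 37.4% of all 32851 windows. The pattern was inverted for GGTCCG, letters of the H4 promoter element called site II that HINFP binds. They were present in 11 of 12 H4 windows, in 0 of 6 H1 and 0 of 18 H2A windows, in 1 of 16 H2B and 1 of 10 H3 windows, and in 8.25% of all windows. The AC box (AAACACA) of H1 promoters was present in 5 of 6 H1, 2 of 18 H2A and 2 of 16 H2B windows, against 7.18% of all. The octamer (ATTTGCAT), bound by OCT1, was present in 7 of 18 H2A and 6 of 16 H2B windows and in none of the 6 H1, 10 H3 and 12 H4 windows, against 1.74% of all. The letters TTTCGCGC of E2F sites were present in 5 of 18 H2A and 4 of 16 H2B windows, against 0.323% of all. The TATA box (TATAAA) was present in 35 of 62 histone windows, against 13.6% of all. None of these motifs contains another. Windows of H2A and H2B genes that point away from each other can overlap, so the same letters can count for both. The 4 H2B windows with the E2F letters, of Hist1h2bp, Hist1h2bk, Hist1h2bj and Hist1h2bf, were all partners of H2A windows that held them. A match is a description of the letters and not of a bound factor.

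**Figure D1:**
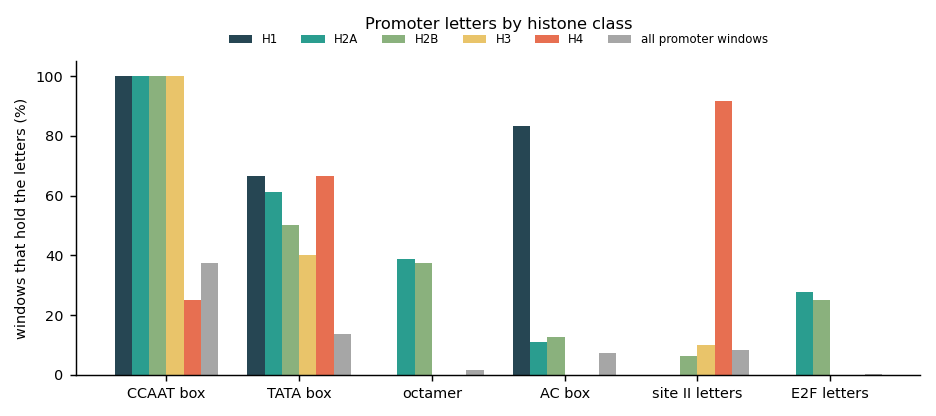
Share of promoter windows (percent, vertical axis) that hold the letters of each of 6 motifs, with 1 bar for each histone class and a grey bar for all promoter windows. The CCAAT box reached 100% of the H1, H2A, H2B and H3 windows and 25% of the H4 windows, while the site II letters reached 91.7% of the H4 windows.

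The H2A and H2B genes often share a promoter. There were 12 pairs of histone genes that point away from each other with at most 500 bases between them, all of them 1 H2A and 1 H2B gene, and all 12 intervals held a CCAAT box. For 3 pairs the interval between the annotated genes is printed. Each carries an octamer and lies in an accessible peak over both starts. The interval of Hist1h2ah and Hist1h2bk does so too and is not printed. Capitals mark motif letters on either strand.
Hist1h2ac to Hist1h2bc, chr13:23683949-23684198, plus strand: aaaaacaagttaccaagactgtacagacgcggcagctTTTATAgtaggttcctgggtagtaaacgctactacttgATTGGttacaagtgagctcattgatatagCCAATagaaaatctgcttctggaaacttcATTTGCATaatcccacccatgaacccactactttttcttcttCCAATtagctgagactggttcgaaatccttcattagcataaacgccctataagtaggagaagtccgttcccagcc
Hist1h2ae to Hist1h2bg, chr13:23571221-23571395, plus strand: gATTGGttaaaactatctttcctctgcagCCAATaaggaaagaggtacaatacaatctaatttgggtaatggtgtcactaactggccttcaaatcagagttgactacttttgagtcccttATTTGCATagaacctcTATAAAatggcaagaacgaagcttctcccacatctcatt
Hist2h2ac to Hist2h2be, chr3:96220881-96221118, plus strand: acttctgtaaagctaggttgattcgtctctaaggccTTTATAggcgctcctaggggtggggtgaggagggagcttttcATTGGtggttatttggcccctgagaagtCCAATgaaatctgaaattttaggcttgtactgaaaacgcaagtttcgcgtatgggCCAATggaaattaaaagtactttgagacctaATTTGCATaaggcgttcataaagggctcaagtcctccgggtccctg
Each of these intervals held CCAAT boxes, the octamer and a TATA box. The Hist1h2ac interval lay in the widest histone peak, the Hist1h2ae interval in the peak with the most gene starts, and the Hist2h2ac interval in the first peak of the chromosome 3 cluster.

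For H1, H3 and H4, and for the chromosome 11 and chromosome 6 genes, the 150 bases before the RefSeq start are printed in the direction of transcription, again with motif letters in capitals.
Hist1h1b, chr13:21780626-21780775, minus strand: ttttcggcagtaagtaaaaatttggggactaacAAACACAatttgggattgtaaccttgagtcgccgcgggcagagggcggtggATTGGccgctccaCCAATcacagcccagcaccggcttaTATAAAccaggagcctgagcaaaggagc
Hist1h1e, chr13:23622559-23622708, minus strand: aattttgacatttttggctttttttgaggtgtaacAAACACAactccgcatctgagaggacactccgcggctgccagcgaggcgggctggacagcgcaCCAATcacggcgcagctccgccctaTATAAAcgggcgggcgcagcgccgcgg
Hist1h3b, chr13:23752195-23752344, plus strand: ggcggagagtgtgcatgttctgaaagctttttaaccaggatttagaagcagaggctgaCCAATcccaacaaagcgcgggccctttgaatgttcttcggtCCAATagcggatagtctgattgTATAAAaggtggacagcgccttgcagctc
Hist1h4i, chr13:22041363-22041512, minus strand: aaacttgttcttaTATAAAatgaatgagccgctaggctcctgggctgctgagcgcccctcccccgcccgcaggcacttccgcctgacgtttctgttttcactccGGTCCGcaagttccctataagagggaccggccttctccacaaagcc
Hist4h4, chr6:136804432-136804581, minus strand: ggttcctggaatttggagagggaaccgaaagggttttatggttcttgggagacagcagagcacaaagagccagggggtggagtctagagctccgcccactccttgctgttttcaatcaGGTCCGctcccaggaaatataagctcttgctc
Hist3h2a, chr11:58954535-58954684, plus strand: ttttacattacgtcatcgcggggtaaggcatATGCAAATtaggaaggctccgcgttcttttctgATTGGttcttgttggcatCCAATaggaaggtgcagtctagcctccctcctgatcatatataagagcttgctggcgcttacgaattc
The printed linker promoters, of Hist1h1b and Hist1h1e, showed the AC box, the CCAAT box and the TATA box in this order. This did not hold for all linker windows, as Hist1h1a lacked the AC box and Hist1h1c and Hist1h1t lacked TATAAA. The printed H4 promoters, of Hist1h4i and Hist4h4, showed the site II letters and no CCAAT box. The Hist1h4c and Hist1h4d windows held both, and that of Hist1h4a held a CCAAT box without the site II letters. The Hist3h2a promoter on chromosome 11 showed the octamer and CCAAT boxes of the H2A class.

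Histone genes had accessible peaks more often than protein-coding genes in general. A peak lay within 1 kb of 62 of 67 histone genes (92.5%), against 17038 of 21951 protein-coding genes (77.6%) by the same rule. The annotated start lay inside a peak for 58 of 67 histone genes (86.6%), against 63.4% of all. All H1, H3 and H4 genes had a peak, as did 16 of 18 H2A and 15 of 18 H2B genes. The 5 genes without a peak were Hist1h2bq, Hist1h2ao, Hist1h2br, Hist1h2ba and Hist1h2aa. Of these, Hist1h2ba and Hist1h2aa encode testis histones and form a divergent pair at the far end of the chromosome 13 cluster. The testis-specific linker gene Hist1h1t had its start inside a peak, but one that also held the starts of Hist1h2ac, Hist1h2bc and Hist1h4c.

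The other 3 genes without a peak lay in near-identical copies. Within 1 kb of the start, 100% of the 50-base words around Hist1h2bq, Hist1h2ao and Hist1h2br occurred more than once in the genome, against a median of 19.3% over the 67 genes. Reads from such copies can be hard to place, and values there are uncertain. Of the 6 genes with at least 90% repeated words, 1 (Hist1h4n) had its start in a peak, against 57 of the 61 other genes. At the testis genes Hist1h2ba and Hist1h2aa the share was only 7.07%. The part of repeated sequence in the missing peaks was not tested.

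Most starts shared a peak with another histone gene. The 35 peaks held 58 annotated starts: 5 peaks held none, 13 held 1, 9 held 2, 6 held 3, 1 held 4 and 1 held 5. The peak with 5 starts, from 23570101 to 23578000 on chromosome 13, covered Hist1h2ae, Hist1h2bg, Hist1h2bf, Hist1h2ad and Hist1h3d. The widest peak spanned 18200 bp from 23681501 to 23699700, over Hist1h2ac, Hist1h2bc, Hist1h1t and Hist1h4c. Peaks over at least 2 starts had a median width of 4400 bp, against 2200 bp over 1 start and 2500 bp for the 16205 promoter peaks of the table. The 5 peaks over no start had a median of 12.1 in deposited value, and some lay inside long gene models such as the 37455 bp annotated for Hist1h2be. Starts here are those of GENCODE. The peak from 23554301, with a mean of 132, counts as over no start but covers the RefSeq promoter window of Hist1h1d.

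Histone peaks were of high but not extreme accessibility. Their median deposited value per kb was 38.0, against 27.4 at promoter peaks and 13.4 at all peaks, which put it at the 68.4th percentile of promoter peaks. Their GC content was lower than that of promoter peaks, with medians of 47.1% and 51.8%. By class, the median value per kb was 45.9 at the 5 peaks over H1 starts, 38.0 at 13 over H2A starts, 45.1 at 14 over H2B starts, 43.7 at 11 over H3 starts and 33.8 at 12 over H4 starts. These sets overlap, since a peak can hold several classes, and no class stood apart. The Hist1h1d peak from 23554301, at 45.7 per kb, is not among the H1 peaks, since the GENCODE start lies outside it.

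On chromosome 13 the value per kb spanned from 7.88 to 82.3. The highest was at Hist1h2an and Hist1h2bp, which encode H2A and H2B, with a mean of 82.3, where the deposited value of the 1900 bp peak was 114 and 153 in the old samples and 178 and 181 in the young samples. Hist1h2bm followed with a mean of 80.3, Hist1h2bh and Hist1h3f with 76.1, and Hist1h2ah and Hist1h2bk with 63.8, so 7 of these genes encode H2A, H2B or H3 and none encodes H4. The lowest means were at a peak within the Hist1h1d gene model from 23560101 (7.88), at Hist1h4n and Hist1h2ap (10.1), at the H4 gene Hist1h4k (10.5) and at the 400 bp peak inside the Hist1h2be gene model from 23598001, which had as few as 7 counts in a sample. The peak of Hist1h4m, in one of the near-identical copies, had a mean of 12.1 per kb with 90.9% of its words repeated.

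**Figure D2:**
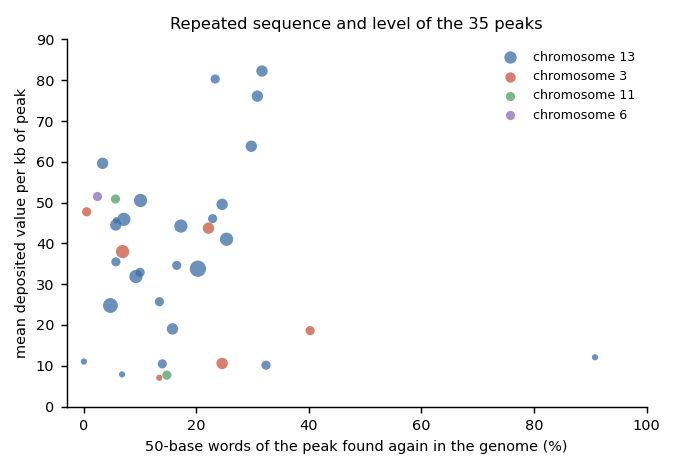
Mean deposited value per kb (vertical axis) against the share of 50-base words found again in the genome (percent, horizontal axis) for the 35 histone peaks, with colour for the chromosome and larger points for more gene starts. The highest peak, at 82.3 per kb, had 31.7% repeated words, and the Hist1h4m peak stands alone at 90.9%.

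Linker histone genes were open in all 4 samples. The peak of Hist1h1b and Hist1h3i had deposited values of 230 and 220 in the old samples and 279 and 322 in the young samples. The peak of Hist1h1c, Hist1h3c and Hist1h2bb had 352 and 536 in the old and 485 and 536 in the young samples, and that of Hist1h2be and Hist1h1e had 200 and 299 against 296 and 326. At Hist1h1a, which shares a peak with Hist1h4a and Hist1h3a, the values were 180 and 185 in the old samples and 258 and 267 in the young samples. The Hist1h1d peak from 23554301 had 97.2 and 137 against 134 and 161. On this deposited scale, where both old samples lay below both young samples at 43.5% of all peaks, they did so at Hist1h1a and Hist1h1b, while old replicate 2 reached into the young values at Hist1h1c, Hist1h1d and Hist1h1e. With RLE scaling the age groups overlapped at Hist1h1b, with 281 and 217 in the old and 260 and 280 in the young samples, and remained apart at Hist1h1a.

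To compare the clusters, the mean log2 value per kb was computed within each sample. The geometric mean over the 26 chromosome 13 peaks was 26.2 and 31.2 in the old samples and 33.1 and 39.0 in the young samples. Over the 6 chromosome 3 peaks it was 15.5 and 27.5 in the old samples and 21.6 and 22.7 in the young samples. Over the 2 chromosome 11 peaks it was 16.6 and 17.4 in the old samples and 18.8 and 26.2 in the young samples. Chromosome 13 was above chromosome 3 in 4 of 4 samples, by 0.58 ± 0.28 on the log2 scale (SD, n = 4). It was above chromosome 11 in 4 of 4 samples too, by 0.72 ± 0.13 (SD, n = 4), or 1.65-fold.

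Neither difference held for every peak. The chromosome 3 cluster contained both strong peaks, such as Hist2h4 with a mean of 47.7 per kb, and weak ones, such as the Hist2h2aa1 and Hist2h3c1 peak from 96247001 with 7.05. With peaks of at least 20% repeated words left out, chosen after the data were seen, the difference from chromosome 3 was 0.29. The 2 chromosome 11 peaks were unlike each other, with means of 50.9 per kb at Hist3h2a and 7.70 at the 700 bp peak of Hist3h2ba. When the values of a cluster were summed and divided by its summed width, chromosome 13 was below chromosome 11 by 0.17, so its position rested on the weak Hist3h2ba peak. The single chromosome 6 peak, at Hist4h4, had a mean of 51.7 per kb.

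**Figure D3:**
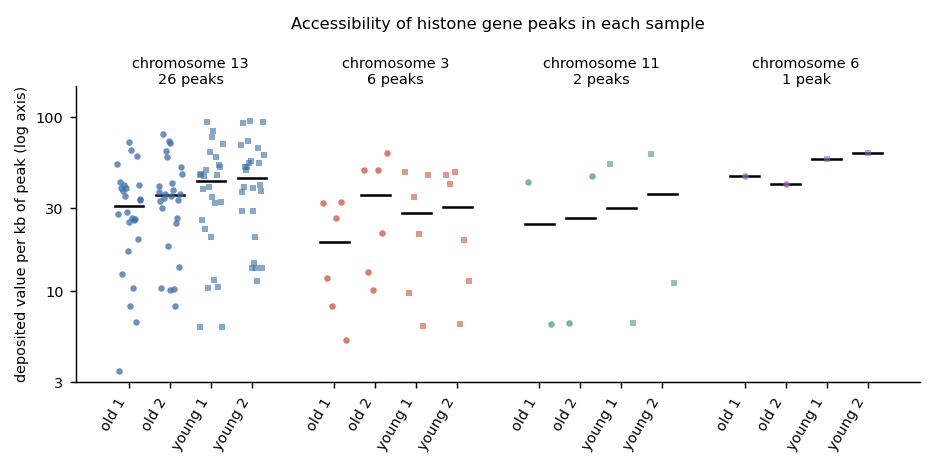
Deposited value per kb of peak (vertical log axis) for each histone peak in each of the 4 samples, by chromosome, with circles for old and squares for young samples and black lines for medians. The chromosome 13 medians run from 30.9 to 45.0, and the chromosome 3 median is lowest in old replicate 1 at 19.1 and highest in old replicate 2 at 35.6.

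In the ageing comparison, no histone peak passed the test. After RLE scaling, 0 of 35 peaks passed a false discovery rate of 0.01 (limma, Benjamini-Hochberg adjustment over all 117282 peaks), where 0.0563% of all peaks passed. At an unadjusted p under 0.05 there were 0 of 35 histone peaks, against 16.4% of all peaks, and limma-voom, on counts taken from the steps of the values, called 0 as well (0 at an unadjusted p under 0.05). The lowest limma adjusted p was 0.392, at the chromosome 3 peak from 96247001. Standard errors lay between 0.12 and 0.41 on the log2 scale. The 95% limma interval lay between -1 and 1 on the log2 scale at 32 of 35 peaks. Without old replicate 1, 4 peaks passed in the limma fit, where 10309 of all peaks passed. These were the peaks of Hist2h2ab (log2 fold change 0.53) and Hist2h4 (0.50) on chromosome 3 and those of Hist1h2ak (-0.51) and Hist1h4a (-0.37) on chromosome 13, with old replicate 2 as the lone old sample.

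The direction was weak and depended on the scaling. The median log2 fold change of old against young was -0.061 over histone peaks, 0.0011 over all peaks and -0.028 over promoter peaks. Below 0 lay 22 of 35 histone peaks (62.9%), against 49.9% of all peaks and 54.7% of promoter peaks. When each old sample was set against each young sample, the histone median ranged from -0.064 to 0.025, and with scaling to equal total signal it was 0.0081. Both old samples lay below both young samples at 5 of 35 peaks, where 24.2% of all peaks did so, and above them at 5 of 35, where 23.2% of all did so. On the values as deposited the median was -0.35 over histone peaks, -0.27 over all peaks and -0.31 over promoter peaks. Both old samples were then below both young at 19 of 35 peaks, against the 43.5% of all peaks, and 0 of 35 passed the threshold, where 1.14% of all peaks passed in that direction. As a share of the signal outside mitochondrial peaks, the 35 peaks held 0.110% and 0.107% in the old and 0.107% and 0.110% in the young samples.

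On chromosome 13, 18 of 26 peaks (69.2%) lay below 0, against 54.7% of promoter peaks, with a median of -0.061 and a range from -0.31 to 0.53. Of the peaks lower in all 4 pairs, the lowest was that of Hist1h4a, Hist1h3a and Hist1h1a, with RLE-scaled values of 220 and 182 in the old and 241 and 232 in the young samples. Old against young this was -0.24 on the log2 scale, with a standard error of 0.15 (limma adjusted p = 0.439). It was followed by Hist1h3e, an H3 gene (a log2 fold change of -0.16), by Hist1h2an and Hist1h2bp (140 and 151 against 166 and 157, -0.15) and by the H4 gene Hist1h4b (38.5 and 39.1 against 44.2 and 41.3, -0.14). The differences were small in each case, and none passed the test.

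Only 2 chromosome 13 peaks with a mean deposited value of at least 5 were higher in all 4 pairs. At the H4 gene Hist1h4j the RLE-scaled values were 61.2 and 51.9 in the old and 42.6 and 49.9 in the young samples, which came to 0.28 on the log2 scale, with a standard error of 0.21 (limma adjusted p = 0.526). At the peak with 5 starts over Hist1h2ae they were 270 and 275 in the old samples, and the lower of the young samples had 255, for a log2 fold change of 0.09. The widest peak, over Hist1h2ac, was nearly level, with 442 and 443 in the old and 434 and 459 in the young samples and a log2 fold change of -0.014 (95% limma interval from -0.26 to 0.23).

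**Figure D4:**
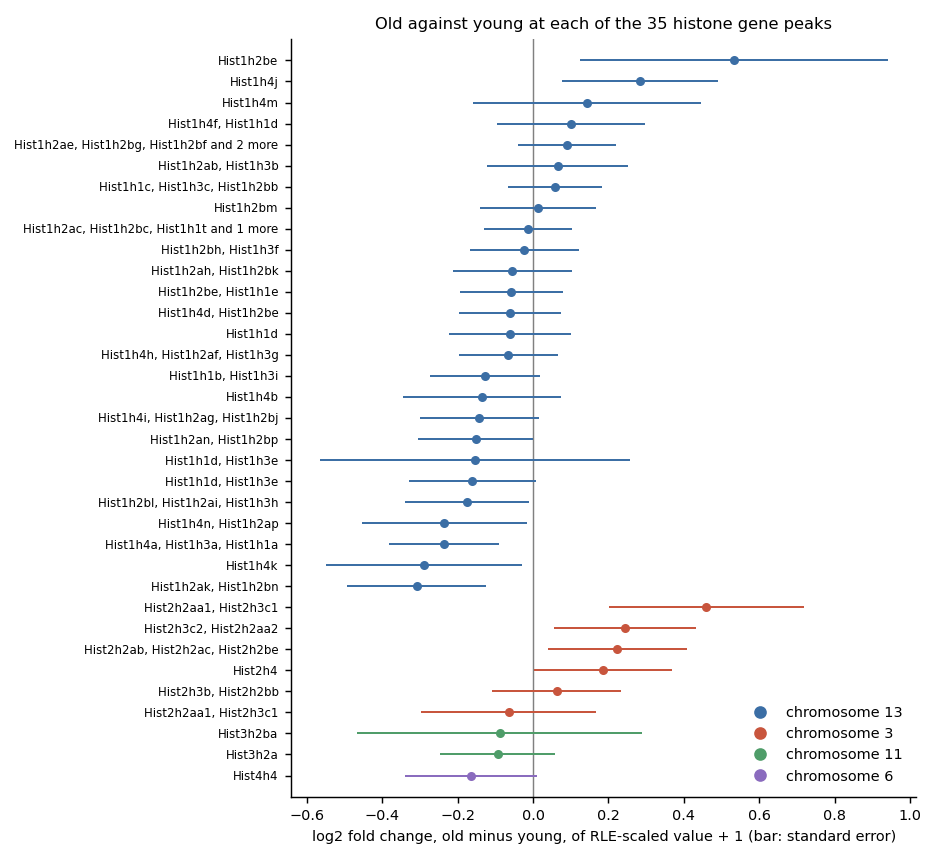
Log2 fold change of old against young on the RLE-scaled value + 1 (horizontal axis) with its standard error for each of the 35 histone peaks, ordered within chromosomes and labelled by gene. None passed the test, and 5 of the 6 chromosome 3 peaks lie above 0 while 18 of the 26 chromosome 13 peaks lie below it. Of all peaks, 49.9% lie below 0, and of promoter peaks 54.7%.

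The chromosome 3 cluster went the other way, and did so in 1 old sample. With RLE scaling, Hist2h4, the H4 gene of this cluster, had 131 in old replicate 1 and 203 in old replicate 2, against 149 and 138 in the young samples. The peak of Hist2h2ab, Hist2h2ac and Hist2h2be, which encode H2A and H2B, had 125 and 192 against 126 and 139. Hist2h3b and Hist2h2bb, an H3 and an H2B gene, had 106 and 133 against 118 and 109. At each of these peaks old replicate 2 was above and old replicate 1 below both young samples.

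At the other peaks of the cluster old replicate 2 was above both young samples too, and old replicate 1 was as well at those from 96233501 and 96247001. The peak of Hist2h3c2 and Hist2h2aa2 had 77.5 and 97.7 in the old and 70.0 and 76.8 in the young samples, and 24.6% of its words were repeated. The neighbouring Hist2h2aa1 and Hist2h3c1 genes had 32.1 and 46.7 against 43.9 and 37.5 at the peak from 96244101, and 23.1 and 36.1 against 21.1 and 20.4 at the peak from 96247001. These genes carry near-identical copies, with 78.5% of the words around the Hist2h3c1 start repeated, so their values are uncertain. The log2 fold changes of the 6 peaks ranged from -0.065 to 0.46, with a median of 0.20.

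On chromosome 11 the log2 fold change was -0.093 at Hist3h2a and -0.089 at Hist3h2ba. Hist3h2a, an H2A gene, had RLE-scaled values of 166 and 145 in the old and 160 and 171 in the young samples. The H2B gene Hist3h2ba, on the same strand, had 5.56 and 4.55 against 4.29 and 6.79, from as few as 13 counts in a sample. At Hist4h4 on chromosome 6 the values were 141 and 102 against 134 and 135, a log2 fold change of -0.16. The age groups overlapped at these 3 peaks.

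Within each sample, the mean log2 RLE-scaled value of chromosome 13 minus that of chromosome 3 was 0.53 and -0.04 in the first and the other old sample, and 0.40 and 0.55 in the young samples. The means were 0.25 ± 0.40 in old and 0.48 ± 0.11 in young MSCs (SD, n = 2 each), a difference of -0.23 that lay within the spread of the old samples. Without old replicate 2 it was 0.055, so its direction rested on that sample. Chromosome 13 minus chromosome 11 was 1.60 and 1.75 in the old and 1.73 and 1.53 in the young samples, and old minus young was 0.046. Both comparisons overlapped between the age groups.

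On chromosomes 3 and 6 the median of old replicate 2 lay away from the young samples at the peaks around the histone genes as well. At all 6 chromosome 3 histone peaks it was above both young samples, and so it was at 23 of 32 surrounding peaks. Surrounding peaks lie outside a stretch of histone genes, up to 200 kb from its ends. They leave out the other peaks between the histone genes. Around Hist4h4 this was so at 6 of 41 peaks and around the chromosome 11 genes at 12 of 25. Around the 2 stretches of chromosome 13 described below it was so at 0 of 3 and 5 of 30. The share over all peaks was not computed, so these counts are a description and cannot be judged against it. On chromosome 3 the median log2 difference of old replicate 2 from the mean of the young samples was 0.45 at the histone peaks and 0.36 at the surrounding peaks. For old replicate 1 these medians were -0.090 and 0.041. Around Hist4h4 on chromosome 6 the direction was opposite, with -0.40 at the gene and -0.31 at the 41 surrounding peaks in old replicate 2, against 0.071 and 0.097 in old replicate 1. Over all peaks of a chromosome, the median in old replicate 2 was -0.091 on chromosome 3, 0.0033 on chromosome 6, -0.012 on chromosome 13 and 0.18 on chromosome 11.

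Chromosome 13 was described in 2 stretches, since its histone genes fall apart where neighbours lie over 200 kb from each other. In the first, from 21715763 to 22043676, the medians in old replicate 2 were -0.15 at 11 histone peaks and -0.29 at 3 surrounding peaks. In the second, from 23531050 to 23934851, they were -0.012 at 15 histone peaks and -0.080 at 30 surrounding peaks. At the Hist3h2a and Hist3h2ba locus they were -0.20 at 2 histone peaks and 0.16 at 25 surrounding peaks, the latter close to the 0.18 of all chromosome 11 peaks. In the 2 stretches of chromosome 13 histone peaks held 56.7% and 87.2% of the summed mean values of all peaks, and 96.7% in the chromosome 3 cluster. The 28 and 13 other peaks inside these 2 stretches, and 1 inside the chromosome 3 cluster, were not counted as surrounding peaks.

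**Figure D5:**
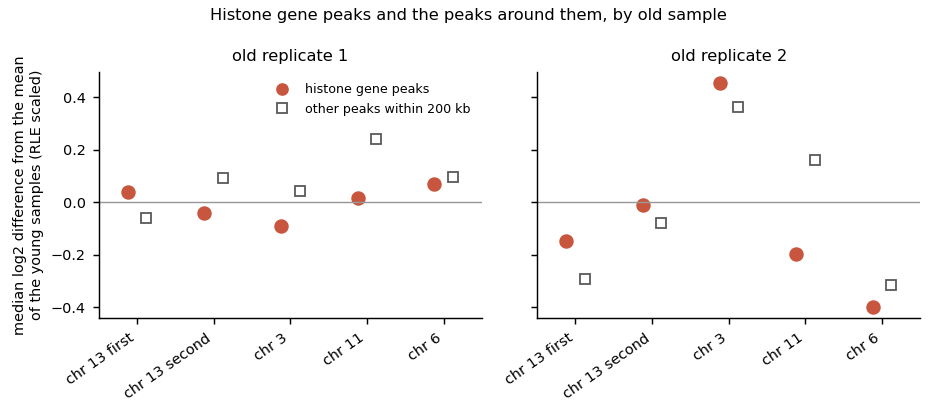
Median log2 difference from the mean of the young samples (RLE scaled, vertical axis) at the histone peaks of 5 loci (red circles). Open squares give it for peaks outside each locus, up to 200 kb from its ends, without other peaks between the histone genes. Old replicate 1 is on the left and old replicate 2 on the right. In old replicate 2 both medians are above 0 at chromosome 3 (0.45 and 0.36) and below 0 at chromosome 6 (-0.40 and -0.31).

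The genes that make and use these histones showed no called change either, where 0.0563% of all peaks passed. For 18 genes of the histone locus body and of histone pre-mRNA processing, all had a start-site peak within 1 kb, and 0 of their 22 peaks passed the test. Their median log2 fold change was -0.12, with the lowest at Zfp473, which encodes a component of the U7 snRNP machinery (-0.32, limma adjusted p = 0.330), and the highest at a peak of Coil, which encodes the Cajal body protein coilin (0.55, limma adjusted p = 0.130). The peak of Npat was at -0.14 and that of Slbp at -0.02. For 16 histone chaperones and import factors, 0 of 17 peaks passed, with a median of -0.087, from -0.27 at Asf1a to 0.033 at Asf1b, which both encode H3-H4 chaperones.

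Variant histone genes and S phase genes were likewise without a call. Among 11 peaks of 11 variant genes the median was 0.0072, from -0.18 at Cenpa, the centromeric H3 gene, to 0.32 at H2afy2, a macroH2A gene. H2afx, found above to carry the stem-loop, was in this list at 0.081. Among 22 peaks of 22 S phase and cell cycle genes the median was -0.13, from -0.37 at Ccne1, which encodes cyclin E1 (limma adjusted p = 0.235), to 0.31 at Cdt1, a replication licensing factor. At an unadjusted limma p under 0.05 there was 1 peak of 22 in this list (Ccne1) and 1 of 22 in the histone locus body list (Coil). The other 2 lists had 0, where 16.4% of all peaks reached this level.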

How the data were processed

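ATAC-seq was analysed in 2 old and 2 young mouse MSC samples. Each deposited value is a score per peak and sample. Its column is called RPKM by the authors, but the values were scaled to the library total without division by peak width. The submitters' processing notes name Bowtie2, Picard and mm10. The study's methods, stated for hypoxia- and normoxia-cultured cells, describe chromstaR peaks and per-sample values.

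Values were divided by RLE factors, and log2(value + 1) was fitted on all 117282 peaks with limma 3.58.1 in R 4.3.3 (eBayes with trend and robust moderation), at an adjusted p under 0.01. The fit was also run on simulated counts with known changes. Their spread was set in advance and not taken from these 4 samples, so this run does not show how the fit behaves on them. Summaries used Python 3.11.15, numpy 2.4.6, pandas 2.3.3, pysam 0.24.0 and matplotlib 3.10.9. Levels were compared per kb of peak. Genes came from GENCODE vM21, promoter windows from RefSeq on GRCm38 (through synonyms), and other sequence from GRCm38.p6.

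The members, gene lists and tests were chosen with earlier results of these data known. Named were all peaks on chromosomes 3, 11 and 6. On chromosome 13 these were called peaks, the 4 highest and 4 lowest fold changes among peaks changed alike in all 4 pairs with a mean of at least 5, the 4 highest and 4 lowest values per kb, the widest peak and that with most starts. Linker, testis and peakless genes, and the extremes of each list, were added. The labels do not say whether equal replicate numbers mark paired samples. The deviations of equally numbered samples had a correlation of -0.0993 across peaks, which cannot decide this with 2 samples per group. Intervals of single peaks come from limma. The full list of blood markers is not reported here.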

Additional observations from a re-analysis of the deposited data

How the results depend on the processing

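The number of histone peaks past the threshold was 0 under every setting run except 1. Leaving out each sample in turn gave from 0 to 4, with the lone sample assumed to vary like the other group. The 4 calls came without old replicate 1, where 10309 of all peaks passed. They were the Hist2h2ab and Hist2h4 peaks on chromosome 3, higher, and the Hist1h2ak and Hist1h4a peaks on chromosome 13, lower. The median log2 fold change of histone peaks, -0.061, was -0.35 on the values as deposited, -0.0071 with quantile normalization and 0.0081 with equal total signal, and ranged from -0.097 to 0.0084 over the left-out samples. With a replicate block there were 0 calls among histone peaks, where 1269 of all peaks passed. The differences of chromosome 13 from chromosomes 3 and 11 then stayed at -0.23 and 0.046. Over the left-out samples these 2 differences ranged from -0.52 to 0.055 and from -0.057 to 0.15. Whether the numbers of the replicates pair the samples is not known. The level of chromosome 13 over chromosome 11 was 0.97 with medians over peaks and -0.17 with summed values. With settings added after the data were seen, it was 0.94 for peaks that hold a start and 0.52 for peaks under 20% repeated words, and the level over chromosome 3 was 0.29 for the latter. The cause of these changes was not tested. The alternative fit with a count model in edgeR was not run, because the deposited column was classed as a score and not as counts. Counts taken from the steps of the values were used in limma-voom only.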
